A study of Homo sapiens with 15 samples.

Results

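The genes described here are the nuclear genes for the last steps of mitochondrial respiration: complex III (symbols that start with UQCR, and CYC1), cytochrome c (CYCS), complex IV (COX4I, COX5, COX6, COX7 and COX8) and the ATP synthase or complex V (ATP5). Membership followed from the gene symbol and the protein-coding class alone, so no measured value chose a gene. The rule found 48 of the 57773 genes in the count files, and 39 of these had enough counts to be tested, out of 13085 tested genes. Complex III had 10 members with 9 tested, complex IV 17 with 11 tested, complex V 20 with 18 tested, and cytochrome c 1, which was tested. The 9 members without enough counts were UQCRHL, COX4I2, COX6A2, COX6B2, COX7A1, COX7B2, COX8C, ATP5MGL and the read-through transcript ATP5MF-PTCD1.

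The libraries came from marrow flushed out of the femurs of SCID-beige mice, which lack working B and T cells, after intravenous injection of MM.1S, a human multiple myeloma line marked with the reporters gfp and luc. The 5 groups were PBS (the labels' name for weekly saline), bortezomib at 0.25 mg/kg once a week, elesclomol at 25 mg/kg, both drugs together (the combination), and bortezomib with elesclomol begun 14 days after inclusion (the delayed combination). Bortezomib inhibits the proteasome, while elesclomol binds copper and releases it inside mitochondria. Of 5 mice treated per group, 3 tumours were sequenced, so n = 3 throughout, and the 4 comparisons with PBS share its 3 libraries. Marrow was taken at limb paralysis, with severe toxicity as the other stated endpoint, and neither the endpoint nor the time on treatment is given per mouse. All groups share the 1 cell line and the mouse host, and the p-values weigh group differences against the spread between these tumours' libraries.

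Complex III passes electrons from ubiquinol to cytochrome c, a small soluble haem protein. Complex IV, which holds copper centres, passes them on to oxygen, and both pump protons. Complex V lets the protons back through its ring of c subunits and makes ATP in its F1 head. Mitochondrial DNA encodes a few core subunits of complexes IV and V and only MT-CYB of complex III, and the rest come from nuclear genes. The factors NRF1, GABPA (an ETS factor) and YY1 are known activators of many of these nuclear genes.

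The promoters of these genes were searched for the strings bound by those factors, in RefSeq windows of 300 bases around the gene start on GRCh38.p14, on both strands. The table held 36 of the 48 members and 32 of the 39 tested ones. Some genes have several windows (35116 windows for 27305 genes), and a gene was counted once if any of its windows held the string. The ETS string CCGGAAG was in 14 of 32 members (43.8%), against 12.2% of 27305 genes and 23.8% of 9166 tested protein-coding genes. The NRF1 string GCGCNTGCG, in which N is any base, was in 11 members (34.4%, against 9.01% and 17.9%), and the YY1 string AAGATGGCG was in 2 (6.25%, against 2.14% and 5.11%). At least 1 of these 3 strings was found in 21 of 32 members, against 40.1% of the tested protein-coding genes. The strings first searched were 1 letter longer, with a further C (NRF1) or G (YY1) at the end. The longer NRF1 string was in 8 members (25%, against 6.98% and 14.2%). The longer YY1 string was in the same number of members as the shorter one (2, against 1.46% and 3.61%), and at least 1 of the 3 in 20 (against 36.6%). CCAAT, the string of the factor NF-Y, was in 16 (50%, against 39.7% and 44.1%), and the SP1 string GGGCGG was in 21 (65.6%, against 48.3% and 77.7%). The start of the YY1 string can overlap the end of the ETS string. A match describes letters only.

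Parts of 5 windows are shown on the gene's own strand, 5′ to 3′, chosen after the values were known. ATP5MC1 had the smallest p in the delayed combination, CYCS had a negative log2 change from PBS in each group, and UQCRH, COX5B and ATP5ME carry the ETS or NRF1 strings. Capitals mark ETS, NRF1, YY1 and CCAAT matches on either strand, so that ATTGG is CCAAT and CTTCCGG is CCGGAAG read from the other strand. GGGCGG is not capitalised.
ATP5MC1 (chr17:48892537-48892816, plus strand): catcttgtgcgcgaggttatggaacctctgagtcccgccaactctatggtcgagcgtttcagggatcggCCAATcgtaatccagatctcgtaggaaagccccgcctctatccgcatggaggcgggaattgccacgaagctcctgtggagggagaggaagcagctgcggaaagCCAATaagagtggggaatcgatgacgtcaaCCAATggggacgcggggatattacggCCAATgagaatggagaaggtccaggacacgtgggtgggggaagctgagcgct
UQCRH (chr1:46303448-46303727, plus strand): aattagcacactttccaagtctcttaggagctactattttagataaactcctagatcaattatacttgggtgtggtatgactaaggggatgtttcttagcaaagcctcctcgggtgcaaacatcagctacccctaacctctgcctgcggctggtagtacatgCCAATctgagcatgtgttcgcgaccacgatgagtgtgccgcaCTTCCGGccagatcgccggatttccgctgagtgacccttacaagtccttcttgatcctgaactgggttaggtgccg
COX5B (chr2:97645812-97646091, plus strand): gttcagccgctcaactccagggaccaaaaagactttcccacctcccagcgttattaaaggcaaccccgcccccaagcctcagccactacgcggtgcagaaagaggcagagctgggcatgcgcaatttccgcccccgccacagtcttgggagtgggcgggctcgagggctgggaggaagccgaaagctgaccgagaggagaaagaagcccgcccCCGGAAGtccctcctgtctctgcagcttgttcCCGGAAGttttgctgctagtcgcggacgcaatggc
ATP5ME (chr4:674247-674526, minus strand): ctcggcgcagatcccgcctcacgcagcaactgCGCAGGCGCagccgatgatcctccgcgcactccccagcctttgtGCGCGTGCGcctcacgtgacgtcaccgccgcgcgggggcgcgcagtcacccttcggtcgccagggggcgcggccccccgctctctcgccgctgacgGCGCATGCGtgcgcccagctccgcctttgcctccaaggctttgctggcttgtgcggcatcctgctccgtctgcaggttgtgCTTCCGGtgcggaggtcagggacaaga
CYCS (chr7:25125231-25125510, minus strand): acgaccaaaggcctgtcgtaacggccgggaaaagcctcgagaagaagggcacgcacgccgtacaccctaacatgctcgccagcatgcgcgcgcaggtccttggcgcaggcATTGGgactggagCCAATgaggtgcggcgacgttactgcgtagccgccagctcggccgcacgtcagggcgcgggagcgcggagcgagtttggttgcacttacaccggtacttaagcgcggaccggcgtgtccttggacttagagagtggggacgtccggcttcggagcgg
The ATP5MC1 window holds 4 CCAAT strings and none of the other 3. CYCS holds 2 CCAAT strings, ATP5ME 1 ETS and 3 NRF1 strings, COX5B 2 ETS strings, and UQCRH 1 ETS and 1 CCAAT string. The order of members with and without a string differed between strings and groups. In the delayed combination the median log2 change was 0.22 for the 14 with the ETS string and 0.18 for the 18 without it, and 0.21 for the 11 with the NRF1 string and 0.18 for the 21 without it. For SP1 and CCAAT it was lower with the string, at 0.16 against 0.22 and 0.18 against 0.21. With elesclomol the ETS medians were 0.02 with and 0.06 without the string, and with bortezomib the NRF1 medians were 0.16 and 0.17. With the combination the ETS medians were 0.17 with and 0.06 without it. The 2 members with the YY1 string had the higher median in each comparison with PBS (0.22 against 0.19 in the delayed combination).

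Counts summed to 4500326 to 9227140 per library outside the delayed combination and to 11060930 to 13161087 within it, so depth and that group cannot be told apart. The members held 0.337% to 0.458% of a library's counts. Bortezomib 1, combination 1 and delayed combination 2 stood apart: over all genes, their deviation from the mean level correlated with the GC content of the gene at 0.51, 0.49 and 0.32, against -0.35 to -0.29 in the PBS libraries. Delayed combination 1 and 3, at -0.13 and -0.05, also lay above every PBS library, so this GC shift and that group cannot be told apart. Bortezomib 2, elesclomol 2 and combination 2 were near PBS, at -0.31, -0.27 and -0.25. All 10 myeloma plasma cell markers were tested, at a summed 12891 to 16199 CPM (read counts scaled to library size with TMM factors). Elesclomol 1 held 342 CPM of erythroid markers against 11.3 to 37.6 CPM elsewhere, and HBA1 was at 0 in all 15 libraries. It also held the most granulocyte markers (143 CPM, against 9.29 to 33.7) and endothelial markers (12.95 CPM, against 0.560 to 8.03). Its macrophage markers came to 75.1 CPM, with 75.2 CPM in delayed combination 2 and 16.8 to 37.5 elsewhere. LYZ alone gave 55.8 and 54.7 CPM of these 2 sums. In elesclomol 1, VCAM1 (11.9 CPM), CSF1R, C1QB and CD14 also exceeded every PBS library, whereas CD68, C1QA, C1QC and ADGRE1 did not. In such bulk RNA, fewer cells of a type and less RNA per cell cannot be told apart.

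With the delayed combination, 38 of 39 members lay above PBS, by small amounts, and none passed the test. The median log2 change was 0.20 (SD over members 0.12), against 0.01 over all tested genes, of which 51.3% lay above 0. No member and no gene at all (0%) reached an adjusted p under 0.05 in edgeR's quasi-likelihood test over 13085 genes, and the smallest member value was 0.328. At an unadjusted p under 0.05 there were 8 members higher and 1 lower, against 6.03% and 5.03% of genes. DESeq2 also called 0 members and limma voom 1.

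In 24 members every delayed combination library lay above every PBS library, and in 1 every library lay below, against 12.8% and 14.7% of genes. They were 5 of complex III, 8 of complex IV and 11 of complex V, and the one below was CYCS. The mean member level was 6.26, 6.37 and 6.27 log2 CPM in the 3 delayed combination libraries and 6.11, 6.11 and 6.12 with PBS. All 3 delayed combination libraries thus stood above PBS. In them 30, 35 and 28 of 39 members exceeded the highest PBS value, against 28.2%, 37.2% and 31% of genes. Bortezomib 1 and combination 1 also did so, with 36 and 35 members (39.3% of genes in each). Leaving out any 1 of the 15 libraries gave a median of 0.16 to 0.21 and 36 to 38 members above 0. Correcting for GC content and length left a median of 0.14 with 32 of 39 above 0, and 18 non-overlapping members against 9.29% of genes.

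**Figure D1:**
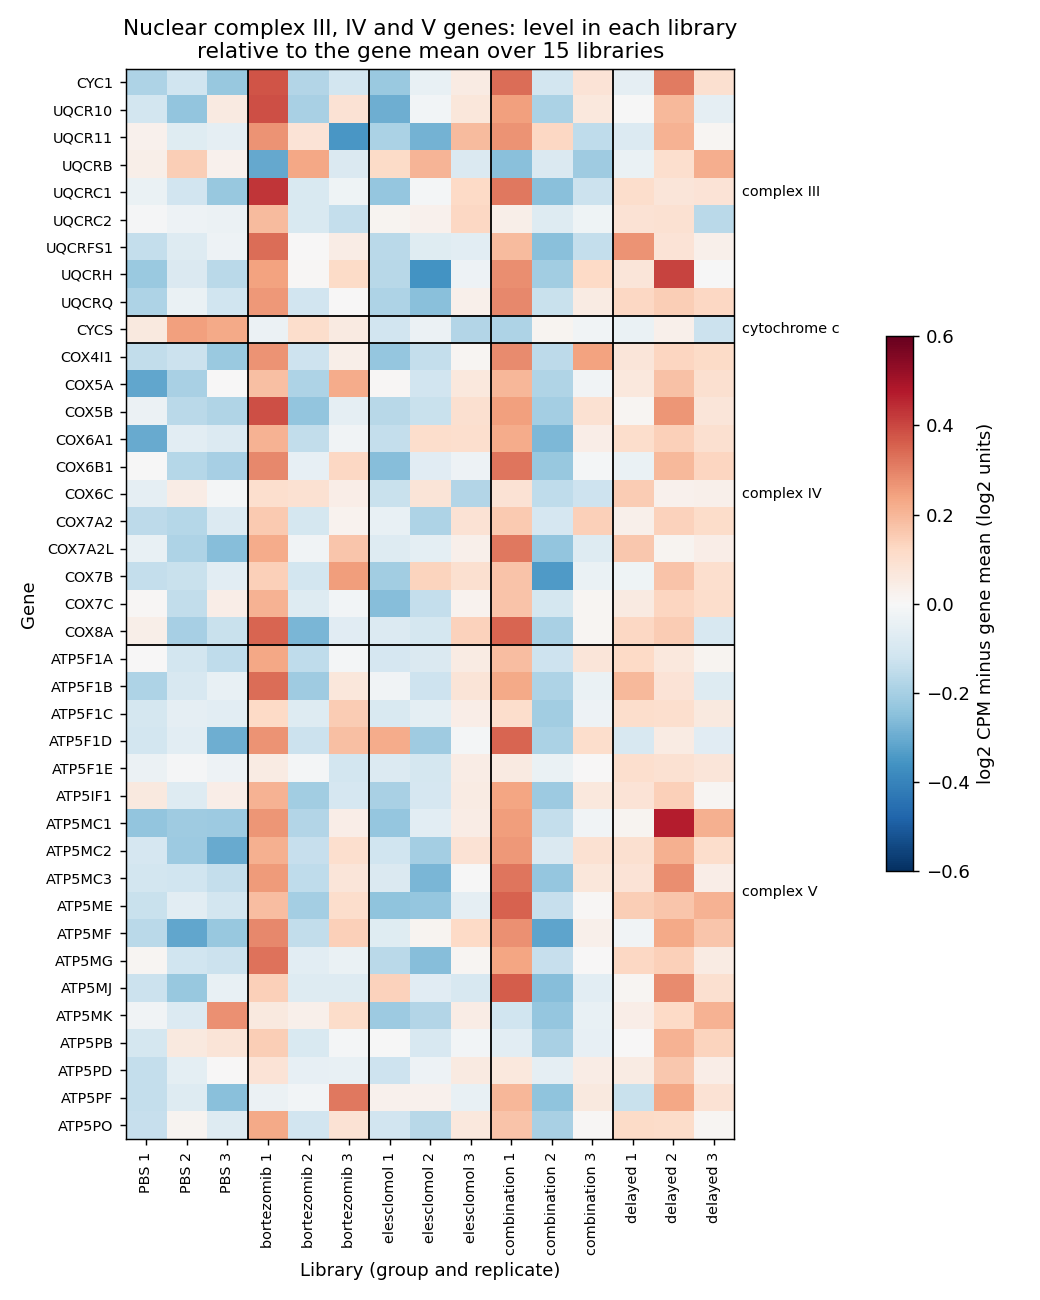
Level of each of the 39 tested members (vertical, ordered by complex) in each of the 15 libraries (horizontal, grouped by treatment), as log2 CPM minus the gene's own mean, on a colour scale from -0.6 to 0.6. Most genes are red together in bortezomib 1, combination 1 and the 3 delayed combination libraries, while CYCS is darkest red in PBS 2 and 3, and UQCRB is blue in bortezomib 1 and combination 1.

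Host cells of the marrow were followed by their markers. The 11 stromal and bone markers, 9 of them tested, summed to 133, 239 and 188 CPM with the delayed combination and to 106 to 136 CPM with PBS, and none was at 0 throughout. Of the 9, 5 lay above 0 and 4 below (median 0.06). The collagen COL1A1 had the log2 change 3.24 ± 0.80 (edgeR adjusted p = 0.268). RUNX2, a transcription factor of bone-forming cells, had -0.60 ± 0.17 (edgeR adjusted p = 0.304) with no overlap, as in 14.7% of genes. RUNX2, SPARC and FN1 were the highest of the list with PBS, at means of 44.3, 31.2 and 17.6 CPM, against 3.32 for COL1A1. Whether tumour or host cells gave their reads was not tested, so the sum and the RUNX2 value cannot be read as host cells alone. Of 6 tested granulocyte markers, 4 lay below PBS in every delayed combination library (14.7% of genes), and the median of the 6 was -1.54. MMP9 and NCF1 went the other way, at means of 4.48 and 4.11 CPM against 2.58 and 3.02 with PBS. Of 7 endothelial markers found, 2 were tested, KDR and CDH5, and both lay above 0 (median 1.96), 1 without overlap (12.8% of genes). Their PBS means were only 0.51 and 0.44 CPM, against 2.28 and 1.43 with the delayed combination. They passed the count filter through treated libraries, so their direction is partly set by the filter. Among the untested ones VWF went the other way (0.31 CPM with PBS, 0.06 delayed), while TEK, FLT1, ENG and EMCN had higher means. The part of these cells in the members' values was not tested beyond a covariate. With the level of all host markers as a covariate in edgeR, the members' median was 0.21 with 38 of 39 above 0. That level was 1 mean over 46 markers, at 0.43 ± 0.08 log2 CPM with PBS and 0.56 ± 0.25 with the delayed combination (SD). It pooled lists that moved in opposite directions, so this fit cannot show the part of any 1 cell type.

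With bortezomib alone the members' median log2 change was 0.17 (SD 0.11) and 35 of 39 lay above 0, against a median of 0.02 and 52.6% over all genes. No member and no gene (0%) passed, with 3 members higher and 0 lower at an unadjusted p under 0.05 (6.76% and 3.84% of genes). DESeq2 called 0 members and limma voom 4. The 7 members above PBS in every library, against 10.5% of genes, were UQCRFS1, UQCRH, COX7A2L, COX4I1, ATP5MC1, ATP5MF and ATP5PF, and none lay below in every library (9.61% of genes). The mean member level was 6.41, 6.12 and 6.24 log2 CPM, so that the first library was high and the second at the PBS level. Without bortezomib 1 the median was 0.06 with 30 of 39 above 0, and without bortezomib 2 it was 0.25.

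The combination gave a median of 0.15 (SD 0.14) with 34 of 39 above 0, against 0.01 and 51.7% over all genes. No member and no gene (0%) passed, and 2 members lay higher and 1 lower at an unadjusted p under 0.05 (7.72% and 5.92% of genes). DESeq2 called 0 members and limma voom 3. CYC1, ATP5MC1 and ATP5MC2 were above PBS in every library (11.3% of genes), and CYCS and UQCRB were below (10.9%). The mean member level was 6.40, 6.04 and 6.21 log2 CPM, with combination 1 above and combination 2 below all PBS libraries. Without combination 1 the median was 0.01 with 24 of 39 above 0, without combination 2 it was 0.24, and after the GC and length correction it was 0.05.

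Elesclomol alone gave a median of 0.04 (SD 0.10) with 25 of 39 members above 0, against 0.00 and 50.7% over all genes. No member passed, while 5 genes passed as higher (0.0382%) and 4 as lower (0.0306%). At an unadjusted p under 0.05 there were 0 members higher (4.88% of genes) and 1 lower (3.19%), which was CYCS, and DESeq2 and limma voom called 0 members. UQCRC2, ATP5MF and ATP5PF were above PBS in every library (9.55% of genes), and CYCS was below (10.2%). The mean member level was 6.09, 6.11 and 6.23 log2 CPM. Without elesclomol 3 the median was -0.01 with 17 of 39 above 0, and without elesclomol 1 or 2 it was 0.07 or 0.06.

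**Figure D2:**
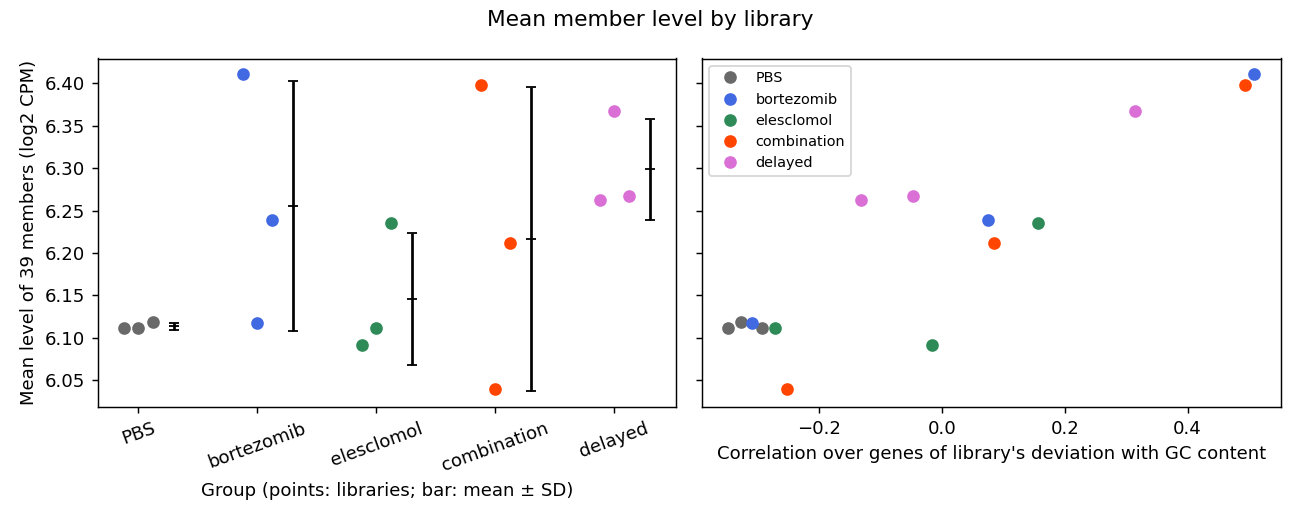
Mean log2 CPM of the 39 tested members in each library, by group with the mean ± SD of 3 libraries (left), and against the correlation over genes between the library's deviation and GC content (right). PBS libraries lie between 6.11 and 6.12 and delayed combination libraries between 6.26 and 6.37, and the 2 highest points, bortezomib 1 and combination 1, are also the farthest to the right.

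Across the 15 libraries the mean member level and this GC correlation had a Pearson r of 0.89, and 0.68 over the 12 libraries without the 3 that stood apart, a description of points that share depth and base composition. Without those 3 libraries the median was 0.06 with bortezomib, 0.04 with elesclomol, 0.02 with the combination and 0.18 with the delayed combination, with 30, 26, 25 and 38 of 39 above 0. Delayed combination 1 and 3 stayed in that fit, with GC correlations (-0.13 and -0.05) above every PBS library. The fit thus leaves a GC difference between that group and PBS. The members themselves had a median GC content of 47.2%, close to the 47.4% of all tested genes. Among members, GC content correlated at 0.55 with the mean deviation in the 3 libraries that stood apart (39 genes, a description).

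Within complex III, all 9 tested members lay above PBS with the delayed combination (median 0.21), 8 of 9 with bortezomib (0.21) and with the combination (0.13), and 5 of 9 with elesclomol (0.01). CYC1, the haem subunit that hands electrons to cytochrome c, was at 75.6, 78.9 and 73.4 CPM with PBS, 111, 76.0 and 79.7 with bortezomib, 73.6, 83.1 and 88.9 with elesclomol, 108, 79.5 and 91.0 with the combination and 82.8, 106 and 91.8 with the delayed combination. It was higher than every PBS library in all combination and delayed combination libraries, with log2 changes of 0.29 ± 0.15 and 0.30 ± 0.15 that did not pass (edgeR adjusted p = 0.404 and 0.459). UQCRFS1, the iron-sulfur subunit, was at 28.7, 30.0 and 31.0 CPM with PBS, 40.0, 31.7 and 32.7 with bortezomib, 28.3, 30.1 and 30.3 with elesclomol, 36.1, 26.6 and 28.7 with the combination and 38.2, 33.5 and 32.3 with the delayed combination. Its bortezomib and delayed combination libraries all lay above PBS, while its elesclomol and combination libraries overlapped PBS.

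The core proteins of complex III differed in level change: UQCRC1 had log2 changes of 0.25, 0.09, 0.13 and 0.21 with bortezomib, elesclomol, the combination and the delayed combination, and UQCRC2 0.02, 0.08, 0.00 and 0.03. Among the supernumerary subunits, UQCRH, the hinge protein that sits by cytochrome c1, was at 61.0, 66.9 and 63.5 CPM with PBS, 84.1, 71.5 and 77.0 with bortezomib, 63.4, 55.6 and 69.6 with elesclomol, 86.2, 61.6 and 77.4 with the combination and 74.9, 94.2 and 70.9 with the delayed combination. Its delayed combination value had a log2 change of 0.33 ± 0.14 (edgeR adjusted p = 0.432) and did not overlap PBS. UQCRB, which binds ubiquinone, was at 31.4, 34.0 and 31.2 CPM with PBS, 24.7, 36.0 and 28.9 with bortezomib, 33.2, 35.3 and 28.9 with elesclomol, 25.7, 28.9 and 26.4 with the combination and 29.8, 32.9 and 35.7 with the delayed combination. It lay below PBS in every combination library (-0.26 ± 0.13), but its sign there turned to 0.09 after the GC and length correction. The same correction moved UQCRB in the delayed combination from 0.03 to 0.33, with an adjusted p of 0.444. Complex III summed to 525 ± 6.47 CPM with PBS and 601 ± 35.7 CPM with the delayed combination (SD, n = 3).

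CYCS ran opposite to most other members. This carrier of electrons between complexes III and IV, which also triggers apoptosis once released from mitochondria, was at 158, 179.8 and 178 CPM with PBS, 148, 163 and 158 with bortezomib, 140.3, 148 and 135 with elesclomol, 133, 153 and 149.8 with the combination and 148, 155 and 139 with the delayed combination. All libraries with elesclomol, alone, combined or delayed, lay below the lowest PBS library, as in 10.2%, 10.9% and 14.7% of genes. Bortezomib 1 and 3 (147.9 and 157.5 CPM) also lay below it (158.0 CPM), and only bortezomib 2 overlapped PBS. Against bortezomib the log2 change was -0.10 with the combination and -0.09 with the delayed combination, neither at an unadjusted p under 0.05. Against PBS the log2 changes were -0.29 ± 0.09 with elesclomol, -0.24 ± 0.09 with the combination, -0.22 ± 0.09 with the delayed combination and -0.14 ± 0.09 with bortezomib. None passed, with edgeR adjusted p of 0.444, 0.318, 0.426 and 0.546, and the elesclomol value had the smallest unadjusted p of any member in that comparison (0.00659). Leaving out each library gave -0.34 to -0.25 with elesclomol, -0.30 to -0.18 when combined and -0.28 to -0.18 when delayed. After the GC and length correction the changes were -0.22, -0.15 and -0.17. CYCS correlated at -0.47 with the mean of the other members over the 15 libraries and UQCRB at -0.54, while the median member reached 0.85. Without the 3 libraries that stood apart CYCS stayed at -0.47, and UQCRB was at -0.30. The gene has 41 annotated pseudogenes, whose counts came to 1.12% of its own.

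**Figure D3:**
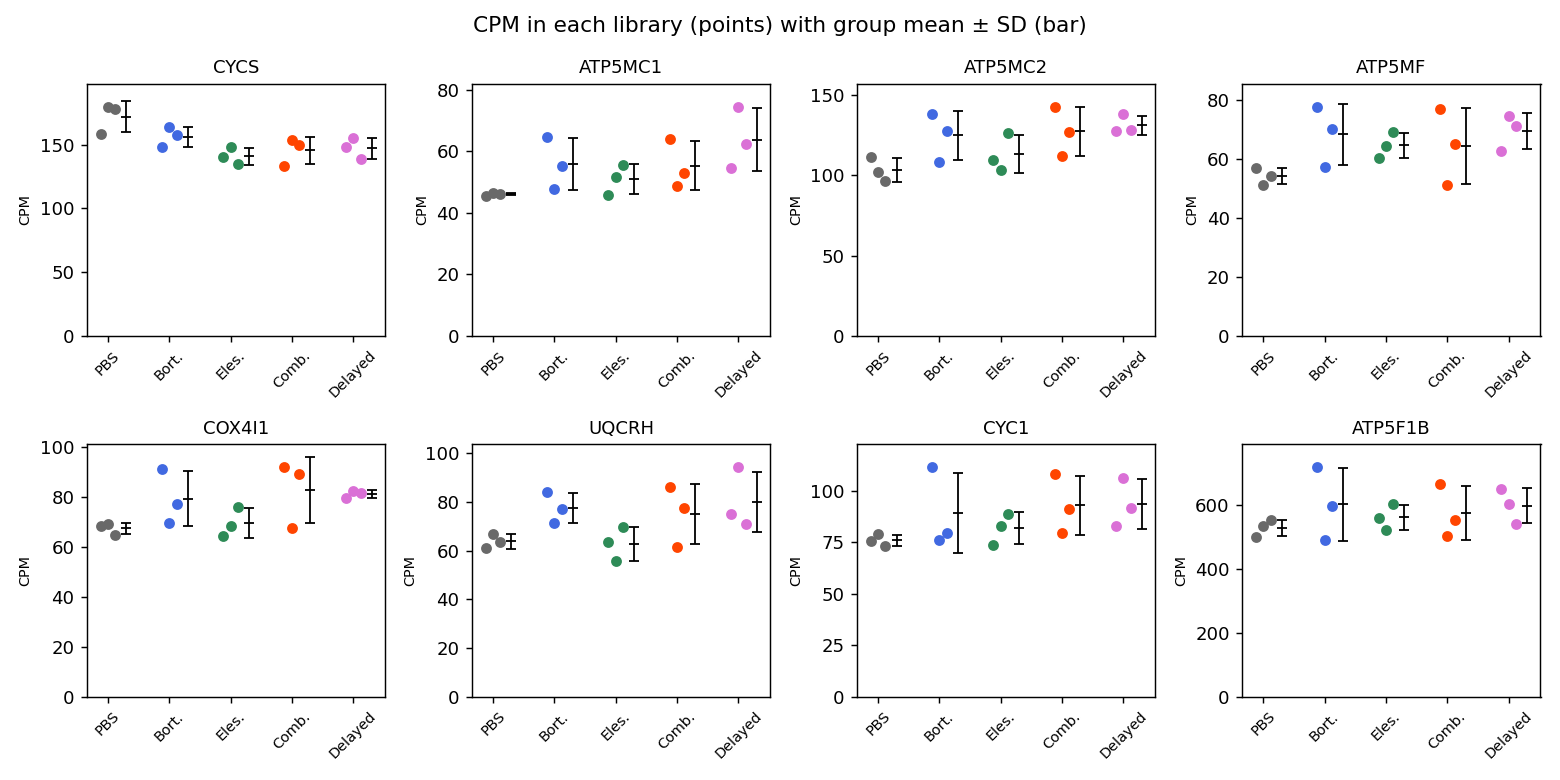
CPM of 8 members in each library (points) with the group mean ± SD of 3 libraries (bars), each panel starting at 0. CYCS is lower in all 9 libraries given elesclomol than in the 3 PBS libraries, and so it is in bortezomib 1 and 3. ATP5MC1, ATP5MC2, ATP5MF, COX4I1, UQCRH and CYC1 are higher in the 3 delayed combination libraries than in PBS, whereas ATP5F1B overlaps.

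In complex IV all 11 tested members lay above PBS with bortezomib and with the delayed combination, at medians of 0.18 and 0.23. The median was 0.17 with the combination (10 of 11 above 0) and 0.09 with elesclomol (9 of 11). COX4I1, the regulatory subunit that binds ATP, was at 68.2, 69.0 and 64.7 CPM with PBS, 91.0, 69.3 and 77.2 with bortezomib, 64.1, 68.3 and 76.0 with elesclomol, 91.8, 67.6 and 89.1 with the combination and 79.3, 82.5 and 81.7 with the delayed combination. Bortezomib and delayed combination libraries lay above PBS in all 3 cases, and combination 2 overlapped it. The log2 changes were 0.30 ± 0.12 with the combination (edgeR adjusted p = 0.332) and 0.27 ± 0.12 with the delayed combination (0.450). COX5A and COX5B, which pack against the catalytic core, had 0.27 ± 0.13 and 0.24 ± 0.15 with the delayed combination. COX7A2L, a factor that joins complexes III and IV into supercomplexes, was at 62.3, 56.5 and 53.8 CPM with PBS, 75.0, 63.2 and 72.0 with bortezomib, 60.8, 61.6 and 65.6 with elesclomol, 79.9, 54.4 and 60.8 with the combination and 71.9, 64.9 and 66.1 with the delayed combination. It was among the 3 members with the smallest p with bortezomib (0.29 ± 0.13, edgeR adjusted p = 0.462), where no library overlapped PBS. COX6C had the smallest value with the delayed combination within complex IV (0.08 ± 0.10). Complex IV summed to 805 ± 17.7 CPM with PBS and 928 ± 30.3 CPM with the delayed combination.

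Several complex IV subunits exist as a common and a tissue-specific form, and these tumours held almost only the common form. COX4I2 had 1 count against 9090 of COX4I1 over all libraries (0.0110%, exact binomial 95% interval 0.000278% to 0.0613%). COX6A2, the heart and muscle form, had 4 counts against 5366 of COX6A1. COX7A1, also of heart and muscle, had 1 against 10802 of COX7A2. COX6B2 had 7 against 11058, COX7B2 had 1 against 7774, and COX8C had 0 against 9978 of COX8A, which allows a share of up to 0.0301%. Intervals and this limit cover counting error only. No fold between groups is given for these 6 genes.

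The common forms were read in every library. COX6A1 was at 36.1, 42.7 and 42.1 CPM with PBS, 51.4, 40.2 and 43.8 with bortezomib, 40.4, 47.9 and 47.7 with elesclomol, 52.0, 37.0 and 45.7 with the combination and 47.9, 49.2 and 47.7 with the delayed combination. COX6B1 was at 91.9, 81.7 and 80.1 CPM with PBS, 113, 89.1 and 100.5 with bortezomib, 77.1, 87.8 and 90.2 with elesclomol, 115, 78.8 and 91.5 with the combination and 89.5, 105 and 101 with the delayed combination. COX7A2 was at 81.0, 80.3 and 85.3 CPM with PBS, 101, 84.1 and 91.8 with bortezomib, 87.6, 79.5 and 96.0 with elesclomol, 101, 84.3 and 99.8 with the combination and 92.4, 99.3 and 97.4 with the delayed combination. Of these 3, COX6A1 and COX7A2 did not overlap PBS with the delayed combination, at 0.26 ± 0.13 and 0.23 ± 0.10, and COX6B1 did. COX7B was at 58.9, 59.3 and 62.3 CPM with PBS, 71.8, 60.3 and 77.4 with bortezomib, 56.4, 71.4 and 69.6 with elesclomol, 73.2, 51.4 and 63.2 with the combination and 63.9, 73.4 and 69.7 with the delayed combination. COX8A was at 85.1, 72.2 and 75.6 CPM with PBS, 106, 68.7 and 79.1 with bortezomib, 78.5, 77.3 and 91.3 with elesclomol, 106, 72.5 and 83.7 with the combination and 90.6, 92.2 and 77.6 with the delayed combination. COX7B did not overlap PBS with the delayed combination (0.20 ± 0.13) and COX8A did (0.16 ± 0.16).

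In complex V all 18 tested members lay above PBS with the delayed combination, at a median of 0.17, and 16 of 18 with bortezomib (0.14) and with the combination (0.13). With elesclomol 11 of 18 did (0.04). The F1 head, where ATP is made, had the highest counts of all members. Its catalytic beta subunit ATP5F1B was at 501, 533 and 552 CPM with PBS, 718, 491 and 598 with bortezomib, 561, 523 and 602 with elesclomol, 668, 502 and 554 with the combination and 651, 603 and 540.4 with the delayed combination, and the alpha subunit ATP5F1A at 502, 465 and 452 CPM with PBS, 588, 452 and 498 with bortezomib, 468, 473 and 519.6 with elesclomol, 569.9, 460.1 and 528 with the combination and 546, 524 and 507 with the delayed combination. Their log2 changes with the delayed combination were 0.18 ± 0.14 and 0.15 ± 0.11, and ATP5F1B overlapped PBS. The gamma, delta and epsilon subunits of the central stalk, ATP5F1C, ATP5F1D and ATP5F1E, had 0.16, 0.12 and 0.11. The 4 genes of the peripheral stalk, ATP5PB, ATP5PD, ATP5PF and ATP5PO, ran from 0.10 to 0.22 with the delayed combination.

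The c ring held the member with the smallest p in the delayed combination. ATP5MC1, ATP5MC2 and ATP5MC3 encode the same mature c subunit behind different import sequences. ATP5MC1 was at 45.6, 46.5 and 46.2 CPM with PBS, 64.7, 47.7 and 55.3 with bortezomib, 45.9, 51.5 and 55.5 with elesclomol, 64.1, 48.7 and 53.1 with the combination and 54.5, 74.5 and 62.4 with the delayed combination. Its 3 PBS libraries were nearly equal, and all libraries with bortezomib, the combination or the delayed combination lay above them. The delayed combination change was 0.47 ± 0.14 (edgeR adjusted p = 0.328), with 0.34 to 0.56 when single libraries were left out. ATP5MC2 was at 111, 102 and 96.8 CPM with PBS, 139, 108 and 128 with bortezomib, 109.8, 104 and 127 with elesclomol, 143, 112 and 127 with the combination and 128, 138 and 128 with the delayed combination. Its changes were 0.27 ± 0.12 with bortezomib, 0.30 ± 0.12 with the combination and 0.34 ± 0.12 with the delayed combination (edgeR adjusted p = 0.458, 0.318 and 0.384). ATP5MC3 was at 144, 143 and 140.0 CPM with PBS, 185, 139 and 163 with bortezomib, 146, 128 and 155 with elesclomol, 194, 132 and 162 with the combination and 164, 188 and 159 with the delayed combination, and its change with the delayed combination was 0.26 ± 0.14. Scaled to gene length, ATP5MC1 gave 48.7% ± 1.4 of the summed c-ring level with PBS and 51.2% ± 2.7 with the delayed combination (SD, n = 3), ranges that overlapped (47.1% to 49.9% and 48.2% to 53.6%). These shares depend on the length used: with the exons of all transcripts, a setting chosen after seeing the data, ATP5MC1 gave 27.3% ± 1.0 with PBS and 29.5% ± 2.2 with the delayed combination, below ATP5MC2 at 40.2% ± 1.6 and 40.0% ± 1.7.

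The membrane subunits of complex V that bind around the ring were spread more widely. ATP5MF was at 56.9, 51.4 and 54.4 CPM with PBS, 77.9, 57.4 and 70.3 with bortezomib, 60.5, 64.4 and 69.1 with elesclomol, 77.1, 51.1 and 65.1 with the combination and 62.7, 74.6 and 71.4 with the delayed combination. It did not overlap PBS with bortezomib (0.34 ± 0.14, edgeR adjusted p = 0.457), elesclomol (0.26 ± 0.14, 0.695) or the delayed combination (0.36 ± 0.14, 0.417). ATP5MK was at 51.5, 49.4 and 63.2 CPM with PBS, 54.4, 53.3 and 56.3 with bortezomib, 44.9, 46.2 and 53.9 with elesclomol, 48.1, 44.5 and 50.7 with the combination and 53.7, 56.8 and 60.3 with the delayed combination, and its elesclomol change was -0.18 ± 0.11 (edgeR adjusted p = 0.730), with libraries that overlapped PBS. Without PBS 3 that change was -0.06, and without elesclomol 3 it was -0.26. ATP5ME, whose promoter is printed above, had 0.27 ± 0.13 with the delayed combination (edgeR adjusted p = 0.450). ATP5IF1, the inhibitor that blocks ATP hydrolysis when the proton gradient fails, was at 81.0, 73.9 and 80.1 CPM with PBS, 89.8, 67.3 and 72.7 with bortezomib, 68.1, 72.6 and 80.6 with elesclomol, 91.8, 67.0 and 81.4 with the combination and 82.5, 86.0 and 78.4 with the delayed combination. Its changes were -0.03, -0.09, 0.03 and 0.07 in the order bortezomib, elesclomol, combination and delayed combination, each smaller than its SE. Complex V summed to 2063.5 ± 7.02 CPM with PBS and 2350.5 ± 90.1 CPM with the delayed combination.

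**Figure D4:**
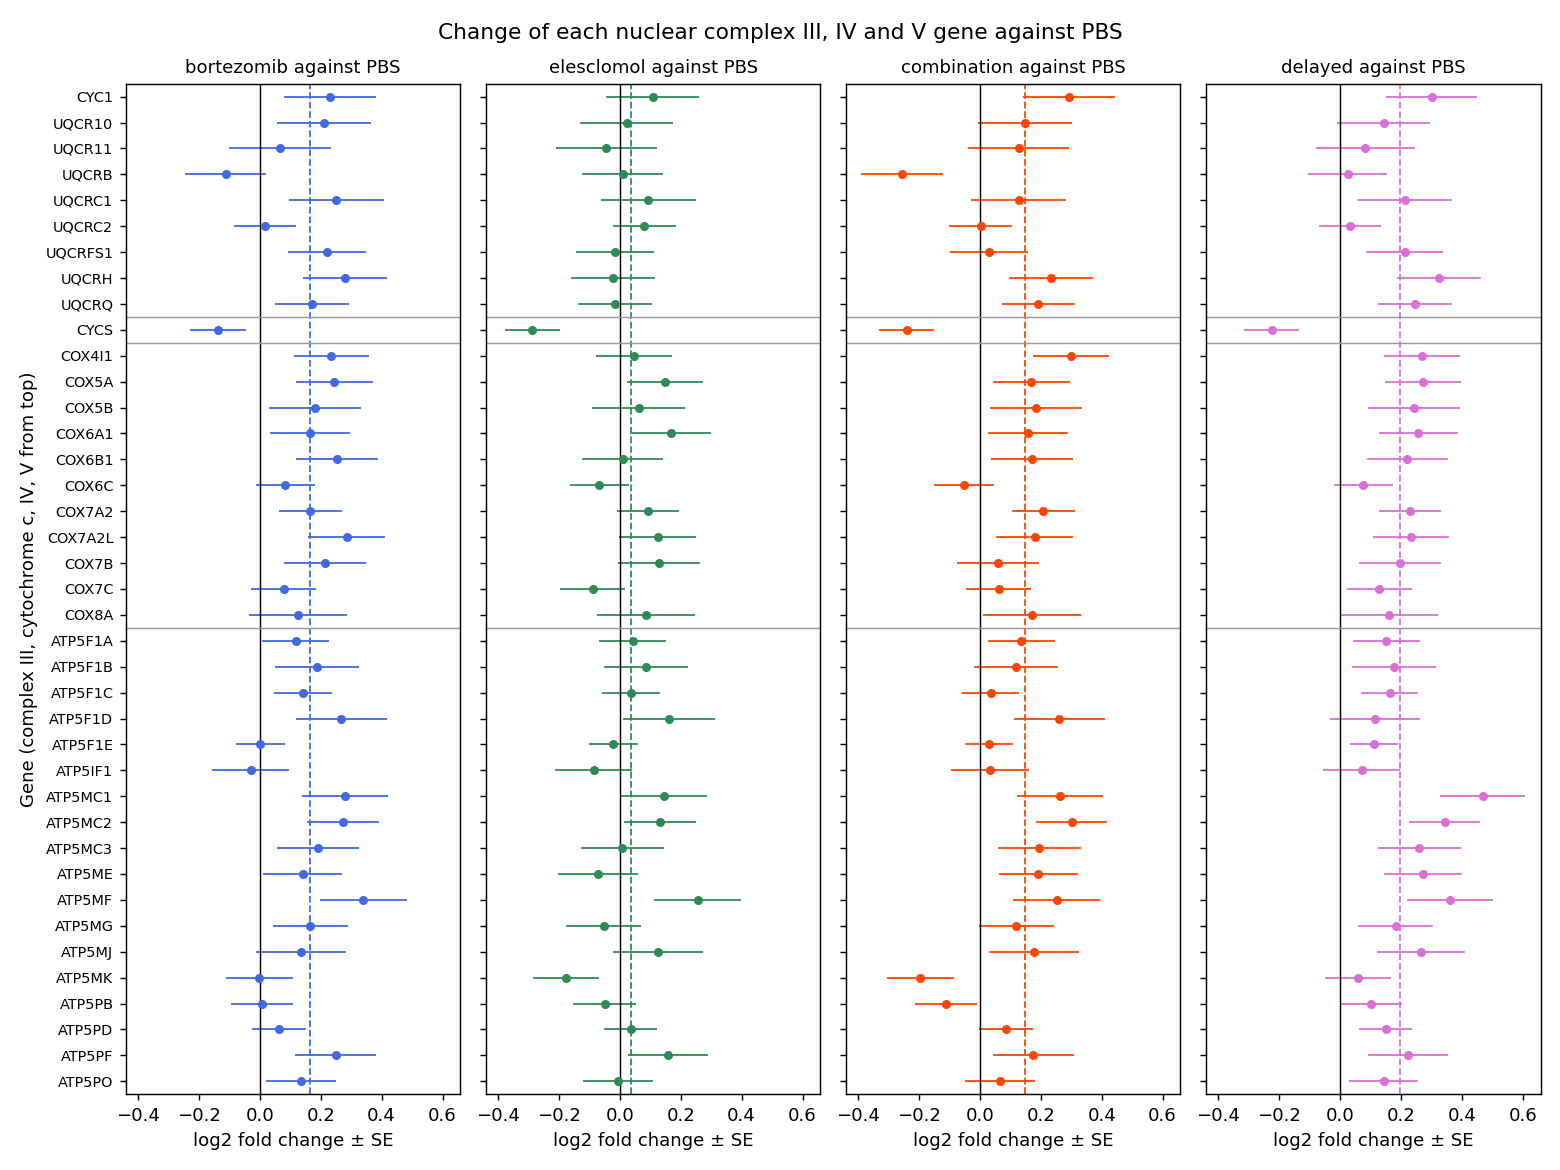
Log2 fold change ± SE of each tested member (vertical) against PBS in the 4 treated groups (panels), with the member median as a dashed line and 0 as a solid line. The dashed lines lie at 0.17, 0.04, 0.15 and 0.20, and CYCS lies left of 0 in every panel.

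Per length, the members spanned a wide range of levels. Scaled to CPM per kb of exon and averaged over the 15 libraries (range in parentheses), ATP5F1B led at 312 (267 to 391), followed by COX8A at 165 (136 to 209), UQCRH at 119 (92.0 to 156) and COX5B at 113 (94.8 to 146). The ranges of UQCRH and COX5B overlapped, and that of ATP5F1B lay above all others. UQCRB was lowest at 5.10 (4.09 to 5.95), next to UQCRFS1 at 9.17 (7.66 to 11.5) and ATP5PB at 9.50 (8.29 to 10.9). ATP5F1B, COX8A and UQCRB kept their first, second and last places when the exons of all transcripts set the length, but UQCRH went from place 3 to 10, COX7C from 15 to 4 and ATP5PD from 8 to 29. Pseudogenes of the members, 156 in all, held counts equal to 0.442% of the members' own, and 11.0% for ATP5PB. Reads can be split between such copies, also between UQCRH and its near-copy UQCRHL (91 counts, 1.05% of the pair, interval 0.843% to 1.28%).

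**Figure D5:**
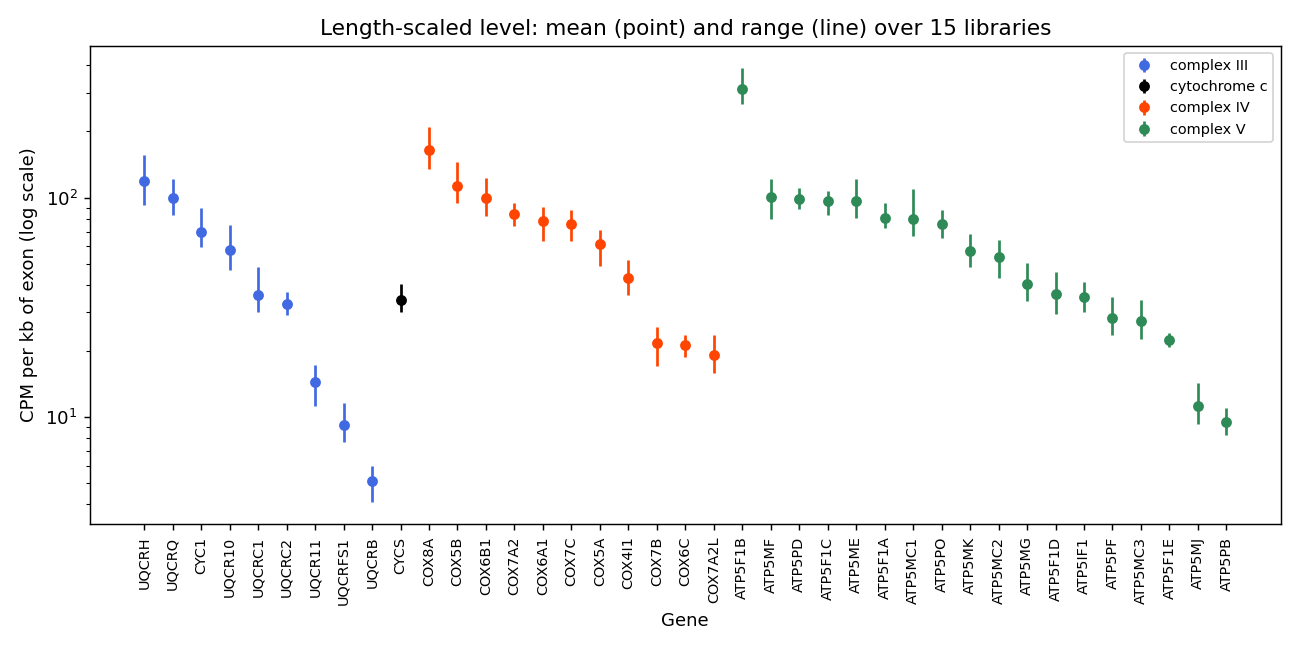
CPM per kb of exon for each tested member on a log axis, as the mean (point) and the range (line) over 15 libraries, ordered within complex III, cytochrome c, complex IV and complex V. ATP5F1B stands highest and UQCRB lowest.

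Most members varied together between libraries. The median correlation between 2 members over the 15 libraries was 0.65, and ATP5MC3 followed the mean of the others most closely (0.95). No such value was taken for other genes, so this is not shown to be a trait of the members. Without the 3 libraries that stood apart ATP5F1C led, at 0.91 against 0.88 for ATP5MC3. There UQCRC2 went from 0.46 to 0.01, UQCR11 from 0.46 to -0.17 and ATP5F1D from 0.63 to 0.30, while ATP5MK rose from 0.34 to 0.55. The median SD of a member over the 15 libraries was 0.17 log2 CPM, the same to 2 decimals as for the 5162 tested genes in their range of level.

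No member passed between treated groups, and no gene did (0% in each of 4 comparisons). The median member change was -0.02 for the combination against bortezomib, 0.04 for the delayed combination against bortezomib, 0.07 for the combination against elesclomol and 0.07 for the delayed combination against the combination, with 15, 28, 31 and 34 of 39 above 0 (47.3%, 47.6%, 48.9% and 48.7% of genes). At an unadjusted p under 0.05 the first 3 had 0 members (4.23%, 3.52% and 12.2% of genes), and the last had 3 higher (1.09% of genes) and 0 lower (1.54%): ATP5MK at 0.25 ± 0.11, ATP5PB at 0.22 ± 0.10 and UQCRB at 0.28 ± 0.13. DESeq2 and limma voom called 0 members in these 4. Same-numbered bortezomib and combination libraries deviated together for numbers 1 and 2 and only weakly for number 3, so the numbers are not shown to mark pairs. Within numbers 1, 2 and 3 the mean member level of the combination minus bortezomib was -0.01, -0.08 and -0.03 log2 CPM. In 9 members the combination was lower in all 3 numbers (18.1% of genes) and in 3 it was higher (14.9%). Each of the 4 medians moved when single libraries were left out, the same-numbered library of the other group being kept: without bortezomib 1 or 2 the first was 0.08 or -0.10 and the second 0.14 or -0.03, and without combination 1 or 2 the first was -0.14 or 0.04, the third -0.00 or 0.15 and the fourth 0.17 or -0.02. Without delayed combination 1, 2 or 3 the second was 0.07, -0.00 or 0.05, and without elesclomol 1 or 3 the third was 0.05 or 0.12. In the interaction, which asks whether elesclomol on top of bortezomib differs from elesclomol alone, 9 of 39 lay above 0 (48.6% of genes) with a median of -0.07. There 0 members passed (1 gene did, 0.00764%) and 0 had an unadjusted p under 0.05 (8.79% of genes). DESeq2 and limma voom called 0 members. Its median was 0.02 without bortezomib 1 or combination 2, -0.01 without elesclomol 3, -0.14 without bortezomib 2 and -0.16 without combination 1.

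The subunits of the same complexes that mitochondrial DNA encodes mostly lay on the other side of PBS. With the combination all 6 were below 0 (median -0.37, with 51.7% of genes above 0), 2 of them at an unadjusted p under 0.05 (5.92% of genes, lower): MT-CO1, the catalytic subunit of complex IV, at -0.48 ± 0.19 and MT-ATP8 at -0.52 ± 0.24 (edgeR adjusted p = 0.320 and 0.360). With bortezomib all 6 were below 0 (median -0.10), with the delayed combination 5 of 6 (-0.17) and with elesclomol 3 of 6 (-0.01), and none passed. The bortezomib libraries did not share this direction. Their summed CPM of the 6 genes was 8402, 13125 and 11154, against 11158 to 11881 with PBS. Bortezomib 1, 1 of the libraries that stood apart by GC content, was thus the lowest, and bortezomib 2 lay above PBS. The summed CPM of these 6 genes was 3.14 to 3.32 times that of the 39 tested nuclear genes with PBS. With both drugs the ratio ran from 2.22 to 2.98 (combination) and from 2.63 to 2.75 (delayed combination), with bortezomib from 1.89 to 3.75 and with elesclomol from 2.39 to 4.13. The combination and delayed combination libraries lay below PBS, and the other 2 groups overlapped it. All mitochondrial DNA genes together did not show this. They held 39.5%, 37.1% and 36.8% of a library's counts with the combination and 36.2%, 39.9% and 40.3% with the delayed combination. With PBS they held 38.7%, 35.5% and 37.6%.

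Genes that build the complexes were given from lists of their factors, and none passed in any comparison with PBS. Of 20 complex IV assembly genes, 3 higher and 0 lower had an unadjusted p under 0.05 with bortezomib (6.76% and 3.84% of all genes), 2 and 0 with elesclomol (4.88% and 3.19%), 3 and 1 with the combination (7.72% and 5.92%) and 2 and 0 with the delayed combination (6.03% and 5.03%). The other lists are read against the same shares. SURF1, which helps to insert haem into MT-CO1, had 0.40 ± 0.13 with bortezomib and 0.34 ± 0.13 with the combination (edgeR adjusted p = 0.420 and 0.318). COX18, which places MT-CO2 in the membrane, had 0.28 ± 0.10 with the delayed combination (0.397). Of 7 complex III assembly genes 1 had such a p in the 4 comparisons, HCCS, which attaches haem to cytochromes c and c1, with bortezomib (0.41 ± 0.17, 0.457). Of 6 for complex V, OXA1L, a membrane insertase, had 0.33 ± 0.11 with the combination (0.291) and 0.29 ± 0.11 with the delayed combination (0.417). TMEM70, which helps to assemble the c ring, had 0.28 ± 0.13 with bortezomib (0.471) and 0.32 ± 0.13 with the delayed combination (0.427). ATPAF1, an assembly factor of the F1 head, had -0.27 ± 0.11 with the combination (0.336).

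Elesclomol carries copper, so the 10 genes that deliver copper to complex IV were listed as well. None passed, and only COX17, the chaperone that hands copper on to SCO1 and COX11, with the combination had an unadjusted p under 0.05 (1 of 10, against 5.92% of genes lower). COX17 was at 23.9, 24.5 and 23.9 CPM with PBS, 26.9, 19.7 and 23.2 with bortezomib, 24.2, 25.2 and 24.1 with elesclomol, 20.5, 18.9 and 21.5 with the combination and 23.5, 25.2 and 24.2 with the delayed combination. All combination libraries lay below PBS, as in 10.9% of genes (-0.25 ± 0.11, edgeR adjusted p = 0.362). The list's medians were 0.02, -0.08, -0.04 and 0.00 with bortezomib, elesclomol, the combination and the delayed combination. Of 13 regulators of respiratory genes, 0 had an unadjusted p under 0.05 with bortezomib, 1 with elesclomol, 2 with the combination and 1 with the delayed combination, all higher, against 6.76%, 4.88%, 7.72% and 6.03% of genes. TFB2M, a mitochondrial transcription factor, had 0.39 ± 0.12 with the combination and 0.32 ± 0.12 with the delayed combination (0.272 and 0.401). GABPB1, the partner of GABPA, had 0.27 ± 0.10 with elesclomol (0.534), and YY1 had 0.26 ± 0.11 with the combination (0.329).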

How the data were processed

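Total RNA from frozen marrow pellets (Trizol) went into a strand-specific library kit that removes ribosomal RNA, per the labels' protocols. The submitters' processing notes name STAR 2.5.4b, featureCounts 1.6.1 and the build GRCh37. The authors deposited raw read counts per gene, for 57773 genes in each of 15 libraries. How strand and mouse reads were handled, and with which annotation, is not given in the sources used here. Reads of conserved mouse transcripts, and of overlapping genes on the other strand, may therefore be among the counts. Symbols came from GENCODE 29 (52338 genes named).

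Differences were tested on the counts with edgeR 4.0.16 in R 4.3.3 (quasi-likelihood F test, robust, TMM factors, filterByExpr with a minimum count of 10, common biological coefficient of variation 0.171). All 15 libraries entered 1 model, and Benjamini-Hochberg adjusted p under 0.05 over 13085 genes counted as passing. CPM use TMM-scaled library sizes, and levels per kb use GENCODE 29 exon lengths. "Not overlapping" means that all 3 libraries of a group lay outside the range of the other 3. The code was tested on simulated counts. Every pair of libraries within a group differed by more than sampling noise.

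Values in every library were given for the 3 members with the smallest p in each comparison with PBS, for CYC1, UQCRFS1, CYCS, COX4I1, ATP5F1A, ATP5F1B and ATP5IF1, and for genes with a tissue-specific copy. UQCRH and UQCRB were added after their values were seen. The members and the lists were chosen with earlier results of these data known. The promoter strings were set after values were known, and those of NRF1 and YY1 were shortened by 1 letter after a first search, to meet a rule on printing and not for a biological reason.

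Alternatives were DESeq2 1.42.0, its size factors, limma 3.58.1 (voom with quality weights), all genes unfiltered, only genes with a mean of 3 log2 CPM or more, the compared groups alone, library sizes without mitochondrial DNA genes, a covariate for the host marker level, the replicate number as a block, and leaving out each library. A correction for GC content and length (loess, span 0.3, 12794 genes, 97.8% of those tested) and a fit that dropped the 3 GC-rich libraries were also run. Counts of members above 0, or not overlapping, under the alternatives were added after seeing the data. Same-numbered bortezomib and combination libraries deviated together from their group means (correlations 0.655, 0.523 and 0.118), so the pairing comes from the values, as the labels do not explain the numbers. No other pair of groups had all 3 same-number correlations over 0.1. Number 3 was weak, as combination 3 followed bortezomib 2 more closely (0.222). Libraries with different numbers also deviated together, such as combination 1 and delayed combination 2 (0.473), so the numbers are not shown to mark pairs. Plots were drawn with matplotlib 3.10.9 in Python 3.11.15.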

Additional observations from a re-analysis of the deposited data

How the results depend on the processing

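Under the alternatives, edgeR and DESeq2 called 0 members in all 9 comparisons, and leaving out each library gave 0 to 0 in each. Limma voom with quality weights called 4 members with bortezomib, 3 with the combination and 1 with the delayed combination, all higher, and 0 in the other 6 comparisons. These included ATP5MF (0.36, adjusted p = 0.0434), ATP5MC2 (0.29, 0.0488) and COX7A2L (0.32, 0.0431) with bortezomib, ATP5MC2 (0.29, 0.0347) and COX4I1 (0.35, 0.0238) with the combination, and ATP5MC1 (0.45, 0.0436) with the delayed combination. The cause was not tested. The log2 changes of the members chosen by smallest p, and of CYCS, kept their direction under every alternative run. With the replicate block the members' medians were 0.16 with bortezomib, 0.04 with elesclomol, 0.14 with the combination and 0.20 with the delayed combination, with 0 members called, and the block fit of bortezomib and combination libraries alone also called 0 members (5 genes against 0). Under the GC and length correction 5 members in place of 3 lay above PBS in every elesclomol library (8.22% of genes) and 2 in place of 1 below (9.32%). With bortezomib 9 in place of 7 lay above (8.72%), and with the combination 4 in place of 3 above (8.74%) and 1 in place of 2 below (11.2%). Without the 3 GC-rich libraries 2 in place of 0 lay below with bortezomib (14.6%) and 4 in place of 2 with the combination (15.3%).

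The number of all genes called depended on the tool. In the order bortezomib, elesclomol, combination and delayed combination against PBS, edgeR called 0, 9, 0 and 0 genes, DESeq2 9, 49, 51 and 51, and limma voom 741, 54, 1394 and 168. Without a filter edgeR called 76, 129, 211 and 193, on the groups compared alone 0, 142, 6 and 19, without the 3 GC-rich libraries 9, 47, 9 and 3, after the GC and length correction 0, 12, 3 and 4, and with the replicate block 0, 9, 2 and 3. The host covariate gave 2 genes with elesclomol. Leaving out single libraries gave 0 to 3, 1 to 22, 0 to 6 and 0 to 46. In the order combination against bortezomib, delayed combination against bortezomib, combination against elesclomol and delayed combination against combination, edgeR called 0 in each, DESeq2 1, 6, 53 and 0, limma voom 35, 7, 205 and 0, the unfiltered fit 14, 25, 291 and 1, and the fit without the 3 libraries 4, 2, 12 and 0. Leaving out single libraries gave 0 to 0, 0 to 5, 0 to 14 and 0 to 0. On the groups compared alone the delayed combination against bortezomib gave 2, and with the block the combination against elesclomol gave 1. In the interaction edgeR called 1 gene, DESeq2 32, limma voom 310, the unfiltered fit 127, the interaction's own groups alone 5, the correction 3, the block 2, the host covariate 0 and the fit without the 3 libraries 46, with 0 to 27 when single libraries were left out.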

Other observations

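The libraries that stood apart by GC content also stood apart in factors of these complexes that are not members. LYRM7, which guards UQCRFS1 before it enters complex III, was at 56.4, 50.1 and 58.3 CPM with PBS, 21.9, 50.1 and 44.9 with bortezomib, 52.7, 52.1 and 47.2 with elesclomol, 13.0, 55.8 and 43.9 with the combination and 53.1, 19.4 and 48.8 with the delayed combination. GABPA was at 27.8, 24.8 and 23.9 CPM with PBS, 13.5, 22.7 and 21.0 with bortezomib, 23.2, 21.6 and 19.5 with elesclomol, 10.5, 23.9 and 23.7 with the combination and 23.5, 13.3 and 26.8 with the delayed combination. Both were lowest in combination 1, delayed combination 2 and bortezomib 1. These genes were chosen after their values were seen, and the part that GC content plays in them was not tested.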
